A study of Homo sapiens with 16 samples.

Results

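The 6 genes described here, KLK2, KLK3, KLK4, TMPRSS2, ACPP and MSMB, encode kallikreins and other secreted or surface products of the prostate luminal cell. They were chosen by name from the 20531 entries of the count table, and all 6 had an entry. RNA was sequenced from LNCaP cells, an established line from a lymph node metastasis of a human prostate carcinoma that responds to androgen. The cells received 40 nM of nonsense control siRNA (NS) or of a pool of siRNAs against SLIRP, a small RNA-binding protein, for 24 hours. They were then kept for 24 hours in serum-free medium with ethanol vehicle (Veh) or 1 nM dihydrotestosterone (DHT), which made 4 groups of 4 libraries each: NS-Veh and SLIRP-Veh without androgen, NS-1nM DHT and SLIRP-1nM DHT with it. The 4 libraries of a group were 2 biological replicates from each of 2 experiments, and which library belonged to which experiment is not given in the sources used here.

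Dihydrotestosterone is a potent androgen, and androgens act on their target genes through androgen response elements, pairs of short half-sites in the DNA nearby. The kallikreins are secreted serine proteases encoded side by side on chromosome 19. In the prostate they are made by luminal cells and released into seminal fluid, where KLK3, known as prostate-specific antigen or PSA, cleaves the semenogelins that form the clot. KLK2 can cleave the inactive precursor of KLK3, and KLK4 is a further protease of the same family. TMPRSS2 is a serine protease anchored in the cell membrane. ACPP encodes prostatic acid phosphatase, and MSMB encodes beta-microseminoprotein, a small secreted protein that is abundant in seminal fluid.

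In hg19 (GENCODE annotation lifted to that build), KLK3 spans chr19:51358171-51364020 and KLK2 chr19:51364824-51383823, both on the plus strand with a gap of 803 bases between them. That gap reaches the first base of any annotated KLK2 transcript. The RefSeq start of KLK2 used below lies inside the KLK2 span, just after chr19:51376694. KLK4 lies on the minus strand of the same chromosome at chr19:51409607-51414651. TMPRSS2 lies on the minus strand at chr21:42836227-42903043, ACPP (now named ACP3) on the plus strand at chr3:132036213-132087146, and MSMB on the plus strand at chr10:51547642-51562515. The 3 kallikreins share their neighbourhood and their direction under DHT, so the bases just before their start sites are shown. RefSeq start-site windows matched KLK2, KLK3, KLK4 and ACPP, and the bases before each start were found in hg19 by an exact match that occurred once in the chromosome. Capitals mark the half-site AGAACA or its variant GGAACA, searched on both strands. The first sequence is the 250 bases before the KLK3 start (chr19:51357921-51358170, plus strand), and the second the 250 bases before the second KLK4 start (chr19:51414652-51414901, minus strand).

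KLK3: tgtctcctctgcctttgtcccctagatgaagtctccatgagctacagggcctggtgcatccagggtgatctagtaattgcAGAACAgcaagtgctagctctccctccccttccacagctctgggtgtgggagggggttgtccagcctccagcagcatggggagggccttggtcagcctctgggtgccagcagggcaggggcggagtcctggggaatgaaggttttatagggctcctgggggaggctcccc

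KLK4: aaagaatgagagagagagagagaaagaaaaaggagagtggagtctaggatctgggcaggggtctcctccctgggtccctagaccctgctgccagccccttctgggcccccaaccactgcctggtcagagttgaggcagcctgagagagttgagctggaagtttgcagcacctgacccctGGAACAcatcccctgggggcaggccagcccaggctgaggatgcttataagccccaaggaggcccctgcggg

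In KLK3 the AGAACA began 170 bases before the start, and in KLK4 a GGAACA began 71 bases before it. The KLK2 window holds a GGAACA that begins 176 bases before the start. In that window 207 of the 250 bases lie in an exon of some annotated KLK2 transcript, so only the 43 bases around the half-site that no annotated exon covers are shown (chr19:51376511-51376553, plus strand), above the aligned 43 bases of KLK3 (chr19:51357993-51358035, plus strand).

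KLK2: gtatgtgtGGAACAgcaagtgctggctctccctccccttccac

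KLK3: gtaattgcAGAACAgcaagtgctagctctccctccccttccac

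Of these 43 bases, 38 were identical between KLK2 and KLK3. The 15 bases from the half-site onward differed at 1 position, A1G, where the KLK3 base comes first, the KLK2 base last, and positions count from the first base of the half-site. Over the whole windows, 211 of 237 aligned bases (89.0%) were identical. The first KLK4 start and the ACPP start had neither word in their windows. AGAACA stood in 12.4% of 35116 RefSeq windows of the same length and GGAACA in 11.6%, so 1 such word is common. Only 1 of those windows (0.00285%) held AGAACA followed after 3 bases by TGTTCT, and it was not a window of these genes. A match is a description of letters and not a binding site.

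Library totals ran from 436353 to 1689708 counts, and NS-Veh replicates 1 and 2, with 512925 and 436353 counts, were the shallowest. Values are given as CPM, counts scaled to a library of 1000000 counts, after scaling by the trimmed mean of M-values (TMM). SLIRP itself (listed as C14orf156) fell by 4.02 on the log2 scale in vehicle and fell by 3.76 in DHT (edgeR quasi-likelihood test, adjusted p = 1.74e-13 and 5.88e-13). The 4 luminal markers reported here, KRT8, KRT18, HOXB13 and FOLH1, were all detected. Their summed level was 3123 to 3264 CPM in NS-Veh and 2089 to 2248 CPM in SLIRP-Veh. In DHT it was 2639.7 to 2944 CPM with NS siRNA and 1807 to 1990.2 CPM with SLIRP siRNA. Of the 4 basal markers, KRT5, KRT14, TP63 and KRT15, 2 were at 0 in every library, and their sum was at most 1.57 CPM. The 4 neuroendocrine markers summed to at most 8.07 CPM and the 3 immune markers to at most 7.83 CPM, each list with 2 genes at 0 throughout. The 5 stromal markers summed to 11.3 to 36.0 CPM. These are bulk samples, so fewer cells of a type and less RNA per cell cannot be told apart.

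DHT raised 4 of the 6 genes in cells with NS siRNA. The kallikreins KLK2, KLK3 and KLK4 rose several-fold, TMPRSS2 rose by less, ACPP did not pass the test and MSMB was too low to be tested. KLK3 stood at 30.02, 25.5, 50.2 and 52.2 CPM in NS-Veh replicates 1 to 4 and at 325, 327, 246 and 254 CPM in NS-1nM DHT. Every DHT library was far above every vehicle library, and the 2 shallow vehicle libraries were also the lowest. In NS-1nM DHT, replicates 1 and 2 were instead the highest. KLK3 rose by 2.68 ± 0.14 on the log2 scale (SE, 6.39-fold), with the smallest p of all 10367 genes tested (adjusted p = 8.21e-15). Without replicate 1 or 2 of both groups the rise was 2.53 and 2.52, and without replicate 3 or 4 it was 2.86 in each. The cause of this split was not tested. KLK2 gave 1, 1, 2 and 5 counts in NS-Veh, or 2.00, 2.32, 1.32 and 4.02 CPM, against 36.7, 27.0, 24.4 and 24.9 CPM in NS-1nM DHT. The vehicle level was thus close to the limit of detection, while the DHT level was not. With 9 counts in vehicle against 132 in DHT, the ratio of counts per total was 11.4, with a 95% exact interval of 5.80 to 25.4 that covers counting error only. The fitted rise of KLK2, 3.44 ± 0.37 on the log2 scale, was the highest of all genes tested (adjusted p = 1.60e-07). KLK2 passed the filter on low counts only through its DHT libraries, here and in the other comparisons. The rank is therefore a description that rests on 9 vehicle counts. The adjusted p of KLK2 for DHT is likewise a description with either siRNA.

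KLK4 stood at 26.02, 18.5, 38.3 and 33.7 CPM in NS-Veh and at 149, 155, 97.5 and 133 CPM in NS-1nM DHT. Its groups did not overlap, and it rose by 2.03 ± 0.17 on the log2 scale (4.09-fold, adjusted p = 5.38e-10), rank 7 of all genes by size of rise. TMPRSS2 stood at 90.1, 69.5, 112 and 121 CPM in NS-Veh and at 174, 194, 148 and 165 CPM in NS-1nM DHT, again without overlap. It rose by 0.69 ± 0.12 (1.61-fold, adjusted p = 0.000402), but without replicate 2 of both groups the adjusted p was 0.0115 (0.54) and without NS-Veh replicates 1 and 2 it was 0.0130 (0.54). The phosphatase behaved differently from the proteases. ACPP stood at 386, 366, 299 and 292 CPM in NS-Veh and at 331, 308, 269 and 261 CPM in NS-1nM DHT, and these ranges overlapped. Its difference of -0.17 ± 0.092 did not pass the test (adjusted p = 0.426, interval of the difference -0.35 to 0.014). The threshold was an adjusted p of at most 0.01 over all genes tested (Benjamini-Hochberg), at which 88 genes, 0.849%, were higher and 48, 0.463%, were lower with DHT. Of the 6 genes, 5 passed the filter on low counts and 4 were higher, with KLK2 counted as a description. The edgeR fits treated the 4 libraries of a group as independent, with no term for the 2 experiments.

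**Figure D1:**
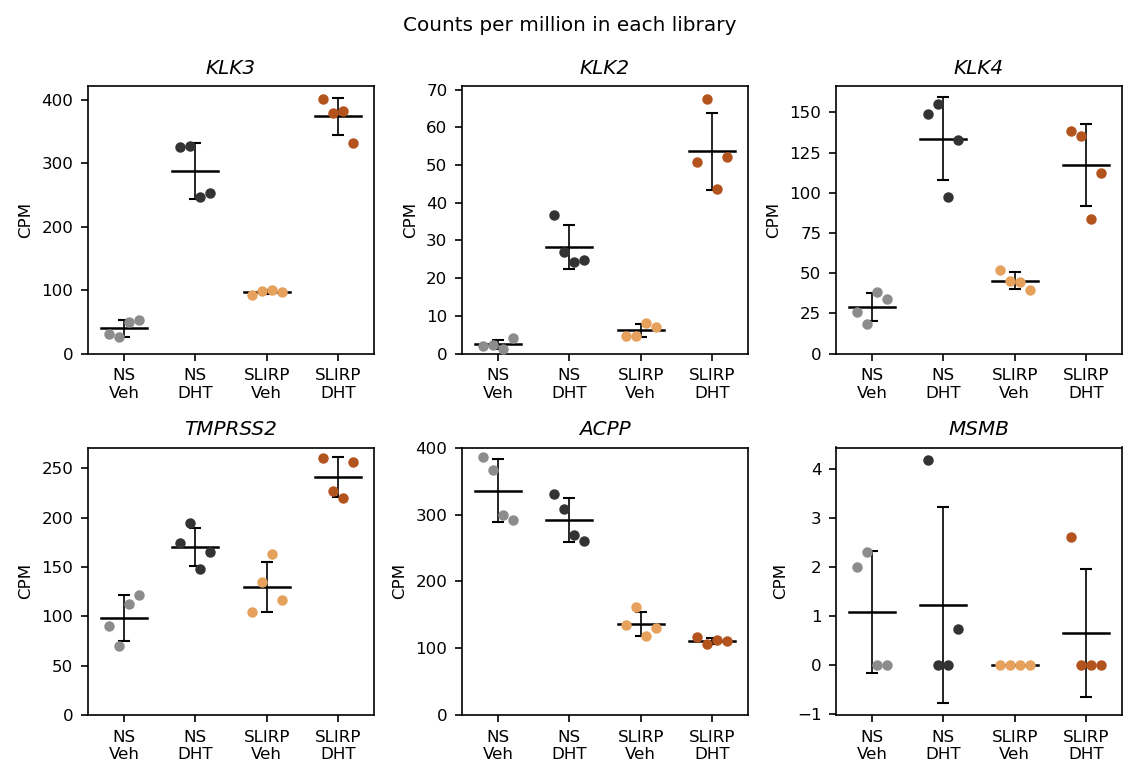
CPM (counts in a library of 1000000 counts, linear axis) of the 6 genes in each of the 16 libraries. Points are libraries in the order of their replicate number, the horizontal bar is the group mean and the error bar the SD (n = 4). The 3 kallikreins and TMPRSS2 are higher with DHT, ACPP is lower in every library with SLIRP siRNA than in every library with NS siRNA, and MSMB is at or near 0.

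MSMB had 9 counts in all 16 libraries together, spread over 5 libraries with at most 4 counts in any of them. It had 1, 1, 0 and 0 counts in NS-Veh, 4, 0, 0 and 1 in NS-1nM DHT, none in SLIRP-Veh and 2, 0, 0 and 0 in SLIRP-1nM DHT. A count of 0 allows up to 3 counts, which is 1.78 to 6.88 CPM at the depths of these libraries. These counts were too few to compare the groups.

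With SLIRP siRNA the same 4 genes rose with DHT. KLK3 went from 91.7, 98.6, 99.6 and 96.4 CPM in SLIRP-Veh to 400, 379, 383 and 332 CPM in SLIRP-1nM DHT. It rose by 1.96 ± 0.12 on the log2 scale (3.88-fold), again with the smallest p of all 10684 genes tested (adjusted p = 5.77e-15). KLK2 went from 8, 3, 6 and 8 counts, or 4.74, 4.70, 8.07 and 7.01 CPM, to 50.9, 67.7, 43.7 and 52.3 CPM. Its rise was 3.13 ± 0.26 (8.73-fold, adjusted p = 8.65e-11). KLK4 went from 52.1, 45.4, 44.4 and 39.4 CPM to 138, 135, 83.5 and 113 CPM, a rise of 1.33 ± 0.17 (2.51-fold, adjusted p = 2.25e-06). TMPRSS2 went from 105, 135, 163 and 117 CPM to 261, 227, 220 and 257 CPM, a rise of 0.94 ± 0.12 (1.92-fold, adjusted p = 3.18e-06). For these 4 genes no DHT library was as low as any vehicle library. The share of all genes without overlap between groups is not given here. This and the other statements on overlap are therefore descriptions only. ACPP stood at 134, 161, 118 and 131 CPM in SLIRP-Veh and at 116, 106, 113 and 110 CPM in SLIRP-1nM DHT, just without overlap, but its difference of -0.28 ± 0.12 did not pass over all genes (adjusted p = 0.239). In this comparison 0.636% of the genes tested were higher and 0.534% were lower with DHT.

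With SLIRP siRNA and no androgen, KLK3 was higher, ACPP was lower, and the other 3 tested genes had positive differences that did not pass. The 4 SLIRP-Veh libraries held KLK3 at 91.7 to 99.6 CPM and the 4 NS-Veh libraries at 25.5 to 52.2 CPM. The difference was 1.11 ± 0.16 on the log2 scale (2.16-fold, adjusted p = 1.04e-06), and it was 0.90 without the 2 shallow NS-Veh libraries (adjusted p = 7.84e-05). The SLIRP-Veh libraries held ACPP at 118 to 161 CPM, below all NS-Veh libraries at 292 to 386 CPM. ACPP fell by 1.28 ± 0.11 (2.42-fold lower, adjusted p = 7.28e-12), and by 1.14 without those 2 libraries (adjusted p = 2.85e-09). KLK2 had 25 counts in SLIRP-Veh against 9 in NS-Veh, a ratio of counts per total of 2.43 with a 95% exact interval of 1.10 to 5.92. The ranges of KLK2 did not overlap, yet its difference of 1.25 ± 0.50 did not pass (adjusted p = 0.0528). KLK4 differed by 0.51 ± 0.21 (adjusted p = 0.0663), with SLIRP-Veh at 39.4 to 52.1 CPM just above NS-Veh at 18.5 to 38.3 CPM. TMPRSS2 differed by 0.26 ± 0.14 with overlapping ranges (adjusted p = 0.148). The calls, 1 of 5 tested genes in each direction, are read against a large background, since 11.8% of all genes tested were higher and 9.95% were lower with SLIRP siRNA in vehicle.

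In 1 nM DHT, KLK2, KLK3 and TMPRSS2 were higher with SLIRP siRNA and ACPP was again lower. KLK2 stood at 43.7 to 67.7 CPM in SLIRP-1nM DHT against 24.4 to 36.7 CPM in NS-1nM DHT, a difference of 0.92 ± 0.19 on the log2 scale (1.90-fold, adjusted p = 0.000195). TMPRSS2 stood at 220 to 261 CPM against 148 to 194 CPM, a difference of 0.50 ± 0.11 (1.42-fold, adjusted p = 0.000660). Neither gene overlapped between the siRNAs, which is a description without the share over all genes. KLK3 was the closest case, with 332 to 400 CPM against 246 to 327 CPM and a difference of 0.37 ± 0.10 (1.30-fold, adjusted p = 0.00327). The KLK3 call depended on single libraries, since the adjusted p was 0.0170 without NS-1nM DHT replicate 3, 0.0150 without NS-1nM DHT replicate 4, 0.0119 without SLIRP-1nM DHT replicate 1 and 0.0122 without SLIRP-1nM DHT replicate 3, with differences of 0.33, 0.33, 0.35 and 0.36. KLK4 overlapped between the siRNAs, with 83.5 to 138 CPM against 97.5 to 155 CPM, and its difference of -0.21 ± 0.14 did not pass (adjusted p = 0.258, interval -0.49 to 0.065). ACPP stood at 106 to 116 CPM against 261 to 331 CPM and fell by 1.39 ± 0.11 (2.62-fold lower, adjusted p = 1.06e-12). Of all genes tested, 12.8% were higher and 11.6% were lower in this comparison. The fall of ACPP came with lower luminal markers, with the summed levels given above. Of these markers 3 of 4 passed as lower in vehicle and 3 of 4 in DHT, against 9.95% and 11.6% of all genes tested. FOLH1 made up most of the sum, with means of 2100 CPM in NS-Veh and 1319 CPM in SLIRP-Veh. KRT18 changed little, with means of 377 and 352 CPM in those groups. In DHT its means were 348 CPM with NS siRNA and 340 CPM with SLIRP siRNA. The part of these markers in the result was not tested.

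**Figure D2:**
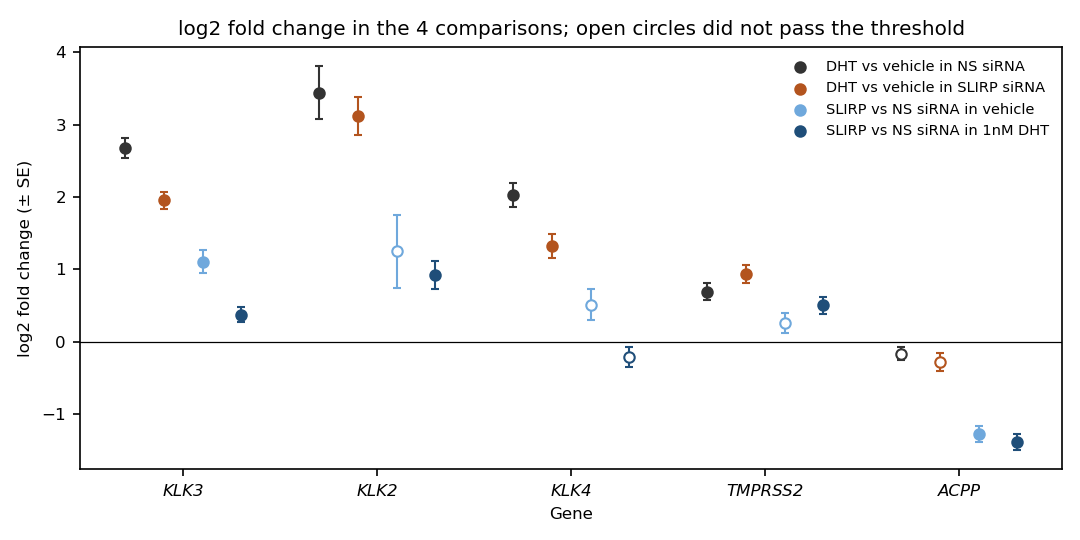
Fitted log2 fold change of KLK3, KLK2, KLK4, TMPRSS2 and ACPP in the 4 comparisons between pairs of groups. Bars are the SE, and open circles mark differences that did not pass an adjusted p of 0.01. The kallikreins sit higher for DHT than for SLIRP siRNA, and ACPP lies near 0 for DHT and at -1.28 and -1.39 for SLIRP siRNA.

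Whether the response to DHT itself differed between the siRNAs was tested as an interaction, and no gene of the set passed. The DHT response of KLK3 with SLIRP siRNA minus that with NS siRNA was -0.74 ± 0.19 on the log2 scale, rank 2 by p of 10684 genes (unadjusted p = 0.000454, edgeR adjusted p = 0.9999). The same difference for KLK4 was -0.72 ± 0.26 (unadjusted p = 0.00791, edgeR adjusted p = 0.9999). It was -0.32 ± 0.51 for KLK2, 0.24 ± 0.18 for TMPRSS2 and -0.11 ± 0.15 for ACPP, with the interval for KLK2 reaching from -1.32 to 0.67. At the threshold 0% of all genes were called by edgeR, with 388 at an unadjusted p under 0.05, and DESeq2 also called 0, while limma on the authors' normalized table called 1 higher at a pseudocount of 1. Without the 2 shallow NS-Veh libraries the KLK3 and KLK4 differences were -0.51 and -0.53. With no filter on low counts, 16905 genes were tested and 11 passed, and the adjusted p of KLK3 was 0.0412. For KLK3 the level in SLIRP-Veh (mean 96.6 CPM) was 2.45 times that in NS-Veh (39.5 CPM), while in DHT the means were 374 and 288 CPM.

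The study also set all 8 SLIRP siRNA libraries against all 8 NS siRNA libraries, vehicle and DHT together. On that comparison, with no term for treatment, ACPP was the only gene of the set that passed. It fell by 1.33 ± 0.089 on the log2 scale (2.51-fold lower, adjusted p = 3.28e-13). It was lower in all 8 SLIRP siRNA libraries than in any NS siRNA library. KLK2 differed by 0.79 ± 0.49 (adjusted p = 0.191), KLK3 by 0.42 ± 0.38 (adjusted p = 0.385) and TMPRSS2 by 0.39 ± 0.17 (adjusted p = 0.0626). With treatment as a covariate these 3 passed as well, at 0.97 (adjusted p = 1.49e-05), 0.57 (adjusted p = 3.43e-06) and 0.40 (adjusted p = 0.000200). KLK4 differed by -0.13 ± 0.31 without the covariate (adjusted p = 0.756) and by 0.0049 with it. In the fit without the covariate 17.8% of the genes tested were higher and 17.4% lower. With the covariate, 1992 of all 10167 genes tested were higher and 1983 lower.

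The genes were also set against each other within each library, which needs no scaling between libraries. For each of the 10 pairs of the 5 tested genes, the log2 ratio of their CPM was compared between 2 groups by a two-sided exact permutation test, adjusted over the 10 pairs. The test treats the 4 libraries of a group as exchangeable, although they came from 2 experiments that the labels do not tell apart. A test within experiments would allow fewer splits and a larger smallest p. Passing at 0.05 here and in the next paragraph therefore holds only if the libraries are exchangeable. The edgeR p-values carry a like limit, since those fits had no term for the experiment. Under DHT in NS siRNA, KLK3 gained 0.71 ± 0.12 on KLK4 and 2.05 ± 0.11 on TMPRSS2 (exact permutation test, adjusted p = 0.0357 for each, from the smallest p that the design allows). KLK4 gained 1.34 ± 0.11 on TMPRSS2, and TMPRSS2 gained 1.00 ± 0.28 on ACPP (adjusted p = 0.0357 in the same exact test). In all, 8 of 10 pairs passed at 0.05. The pair KLK2 and KLK3 did not, with a change of -0.050 ± 0.29 (exact p = 0.857), nor did KLK2 and KLK4 (0.66 ± 0.32, exact adjusted p = 0.0952). The KLK2 ratios in NS-Veh rest on 1 to 5 counts a library and move with the prior count. At a prior count of 0.5 in place of 2, KLK2 against KLK3 changed by 0.46 and KLK2 against KLK4 by 1.16 (exact adjusted p = 0.0317).

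Under DHT in SLIRP siRNA, 9 of 10 pairs passed. KLK2 then gained 0.86 ± 0.20 on KLK3 and 1.47 ± 0.24 on KLK4, and KLK3 gained 1.03 ± 0.15 on TMPRSS2 (exact adjusted p = 0.0317 for each). Only KLK4 against TMPRSS2, at 0.41 ± 0.23, did not pass (exact adjusted p = 0.143). Under SLIRP siRNA in vehicle, 6 of 10 pairs passed, namely all 4 pairs with ACPP, KLK3 against KLK4 (0.67 ± 0.13) and KLK3 against TMPRSS2 (0.91 ± 0.14), each at an exact adjusted p of 0.0476. All 6 stood at the smallest exact p that the design allows, 0.0286, so their adjusted p depends on how many pairs reached it. The 4 pairs with ACPP share its fall and are not separate results. Under SLIRP siRNA in DHT, 8 of 10 passed. KLK2 gained 0.50 ± 0.17 on KLK3 and 1.07 ± 0.17 on KLK4, KLK3 gained 0.57 ± 0.18 on KLK4, and the KLK4 to TMPRSS2 ratio changed by -0.69 ± 0.16 (exact adjusted p = 0.0357 for each). KLK2 and KLK3 did not differ detectably from TMPRSS2 there (0.38 ± 0.19 and -0.12 ± 0.11, exact adjusted p = 0.127 and 0.429). KLK3 gained on KLK4 in all 4 comparisons. These comparisons share groups of libraries and are given side by side.

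**Figure D3:**
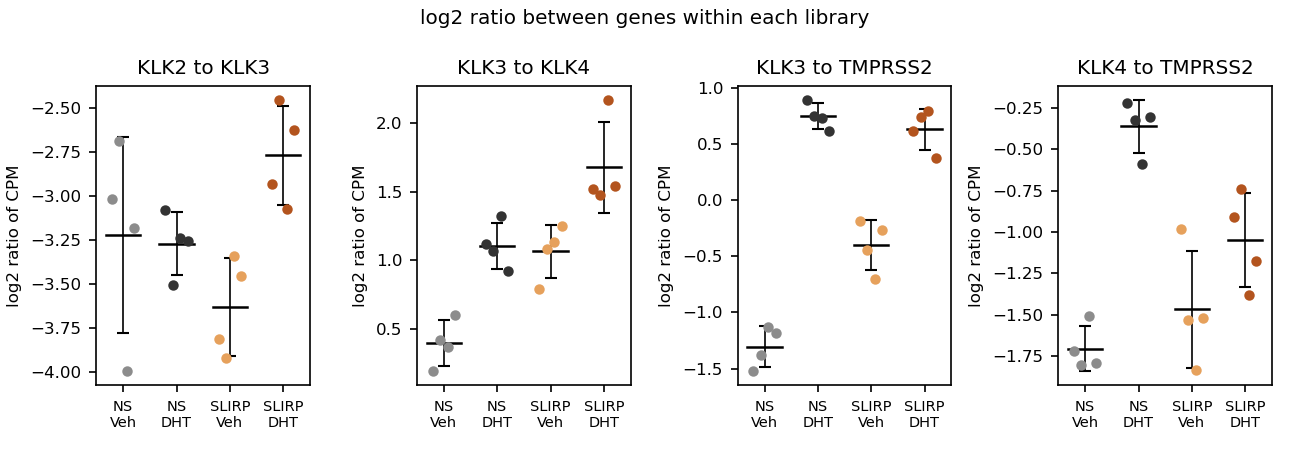
log2 ratio of the CPM of 2 genes within each library (prior count 2), for KLK2 to KLK3, KLK3 to KLK4, KLK3 to TMPRSS2 and KLK4 to TMPRSS2. Points are the 4 libraries of each group, the horizontal bar is the mean and the error bar the SD, and the axes start at different values. The KLK3 to KLK4 ratio has a mean of 0.40 in NS-Veh and 1.07 in SLIRP-Veh, and with DHT a mean of 1.11 for NS siRNA and 1.68 for SLIRP siRNA.

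Levels of different genes were compared only per length, as CPM per kilobase of all annotated exons. In NS-Veh, ACPP stood highest at 78.4 ± 11.1 (SD, n = 4), and its lowest library lay above every library of the other genes. TMPRSS2 at 14.9 ± 3.53, KLK4 at 14.5 ± 4.34 and KLK3 at 8.51 ± 2.95 followed, and neighbours in that order overlapped. KLK2 at 0.380 ± 0.180 was low, and its range lay within that of MSMB (1.17 ± 1.35). With DHT in NS siRNA, ACPP at 68.2 ± 7.71, KLK4 at 66.7 ± 12.9 and KLK3 at 62.1 ± 9.47 overlapped, above TMPRSS2 at 25.9 ± 2.92 and KLK2 at 4.45 ± 0.906. In SLIRP-Veh the levels were 31.8 ± 4.22 for ACPP, 22.6 ± 2.60 for KLK4, 20.8 ± 0.752 for KLK3, 19.7 ± 3.83 for TMPRSS2 and 0.965 ± 0.266 for KLK2. In SLIRP-1nM DHT the order was KLK3 at 80.5 ± 6.28, KLK4 at 58.6 ± 12.7, TMPRSS2 at 36.6 ± 3.10, ACPP at 25.9 ± 1.01 and KLK2 at 8.44 ± 1.59, with no overlap between neighbours.

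The length used moves these levels. Per kilobase of the Ensembl canonical transcript, KLK3 stood at 27.0 in NS-Veh and at 197 in NS-1nM DHT, above KLK4 at 20.6 and 94.4 and above ACPP at 92.1 in the DHT group. In SLIRP-Veh it stood at 66.0, above KLK4 at 32.0 and ACPP at 42.9. In SLIRP-1nM DHT, KLK4 at 59.0 to 97.6 and TMPRSS2 at 63.9 to 75.6 then overlapped. In SLIRP-Veh, TMPRSS2 at 37.6 then stood above KLK4. The order of KLK3, KLK4 and ACPP in the first 3 groups, and of KLK4 and TMPRSS2 in SLIRP-Veh, therefore depends on the length used. In SLIRP-1nM DHT the canonical means of KLK4 and TMPRSS2, 82.9 and 69.9, kept their order, and only the lack of overlap depends on the length. KLK2 and KLK3 share 11 of the 50-base words of their canonical transcripts, which is 0.396% of the words of KLK2 and 0.777% of those of KLK3, so few 50-base reads could have been split between them. TMPRSS2 overlaps MX1 on the opposite strand by 5772 bases, and the strand setting of the counting is not given in the sources used here. MX1 had 2 to 12 counts in each library (2.61 to 9.27 CPM), against 69.5 to 261 CPM for TMPRSS2.

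Of the other kallikreins, all 13 listed, KLK1, KLK5 to KLK15 and the pseudogene KLKP1, had an entry, but 5 were at 0 in every library and none passed the filter on low counts. With no such filter, 1 of 5 tested passed for DHT in NS siRNA, namely KLKP1, and 0 of 8 passed in each of the other 3 comparisons between pairs of groups. Over all 16042 genes tested without the filter, 153 were higher and 83 lower with DHT in NS siRNA. KLKP1, which lies between KLK2 and KLK4, had 0, 1, 1 and 0 counts in NS-Veh and 6, 9, 7 and 9 in NS-1nM DHT. It had 1, 0, 2 and 2 counts in SLIRP-Veh and 7, 9, 1 and 9 in SLIRP-1nM DHT. Its groups did not overlap in NS siRNA and did in SLIRP siRNA. With 31 counts in DHT against 2 in vehicle, the ratio of counts per total in NS siRNA was 12.0 (95% exact interval 3.05 to 104), and in SLIRP siRNA, with 26 against 5, it was 5.84 (2.21 to 19.5), both for counting error only. The edgeR adjusted p with no filter was 0.00173 in NS siRNA and 0.0153 in SLIRP siRNA, so KLKP1 passed in NS siRNA alone, and the difference between the siRNAs was not tested for it.

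Among the 18 listed relatives of TMPRSS2, membrane-anchored serine proteases, 16 had an entry, and 3 or 4 were tested depending on the comparison. None passed with DHT in either siRNA (median log2 difference 0.076 in NS and -0.20 in SLIRP siRNA, against 0.0010 and -0.0011 over all genes tested). With SLIRP siRNA, HPN (hepsin) fell by 0.73 ± 0.12 in vehicle and by 0.64 ± 0.12 in DHT (adjusted p = 1.23e-05 and 2.96e-05). PRSS8 (prostasin) fell by 0.44 ± 0.11 in DHT (adjusted p = 0.00210), but it did not pass without SLIRP-1nM DHT replicate 1 or 2 (adjusted p = 0.0152 and 0.0130). TMPRSS2, in contrast, was higher with SLIRP siRNA in DHT. Of 17 protease inhibitors, 6 were tested and none passed with DHT (medians -0.16 and -0.17). With SLIRP siRNA in vehicle, 2 of 6 were lower, CST3 (cystatin C) by 0.56 ± 0.13 and SPINT2, an inhibitor of membrane-anchored serine proteases, by 0.40 ± 0.087. Of all genes tested, 9.95% were lower and 11.8% higher in vehicle. In DHT, CST3 fell by 0.66 ± 0.13 and SPINT1 by 0.53 ± 0.12, and SERPINB6, an intracellular serpin, rose by 0.34 ± 0.096. There 11.6% of all genes tested were lower and 12.8% higher. The SERPINB6 call was lost without NS-1nM DHT replicate 2 or SLIRP-1nM DHT replicate 1 or 3 (adjusted p = 0.0132, 0.0137 and 0.0188). The vehicle call of CST3 was lost without replicate 1 of every group (0.0267) and that of SPINT2 without replicate 4 (0.0168), and the DHT call of SPINT1 without replicate 2 (0.0136, each an adjusted p). The medians of the inhibitors were -0.013 and 0.090.

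The other 29 listed genes, mostly secretory and surface products of the prostate, all had an entry, and 15 were tested. Not all are secreted or on the surface, and SORD is an intracellular enzyme. With DHT, 1 of 15 rose in NS siRNA, where 0.849% of all genes tested were higher. It was SORD, sorbitol dehydrogenase, by 0.60 ± 0.090 (mean 521 CPM in NS-Veh and 786 CPM in NS-1nM DHT, adjusted p = 6.69e-05). The count that passed in either direction was 4 with the replicate block, 3 without replicate 4 and 0 with limma on the authors' normalized table. In SLIRP siRNA SORD rose by 0.51 ± 0.093, and PLA2G2A, a secreted phospholipase, fell by 0.72 ± 0.13 (adjusted p = 0.000639 and 0.000958). Neither passed without replicate 1 of every group (adjusted p = 0.0163 for SORD and 0.0196 for PLA2G2A). PLA2G2A also did not pass without replicate 3 of every group (0.0105), SLIRP-1nM DHT replicate 3 (0.0130) or SLIRP-Veh replicate 1 (0.0221, each an adjusted p). The medians of the 15 were 0.12 and 0.044, and those of the 5 tested genes of the set were 2.03 and 1.33. The set and the lists were chosen with earlier results of these data known, so this gap is not a test. With SLIRP siRNA in vehicle, 6 of 15 were lower and 1 was higher, with a median of -0.47 against -0.0083 over all genes tested. Of all genes tested, 9.95% were lower and 11.8% higher. STEAP2, a metalloreductase of the cell surface, fell by 1.12 ± 0.085, the secreted matrix protein SPON2 by 0.96 ± 0.081 and the membrane endopeptidase MME by 0.73 ± 0.073 (adjusted p = 5.37e-13, 5.86e-12 and 3.62e-10). The gene that rose was PLA2G2A, by 0.59 ± 0.14, named here after its value was seen, and its adjusted p was 0.0118 without NS-Veh replicate 4 and 0.0112 without SLIRP-Veh replicate 1. In DHT 7 of 15 were lower and 0 higher by edgeR, with a median of -0.64 against -0.023 over all genes tested. Of all genes tested, 11.6% were lower and 12.8% higher. STEAP2 fell by 1.14 ± 0.085, SPON2 by 1.04 ± 0.079 and STEAP1 by 0.70 ± 0.088 (adjusted p = 3.27e-13, 3.82e-13 and 4.88e-08). STEAP2 stood at a mean of 2622 CPM in NS-Veh and 1196 CPM in SLIRP-Veh. FOLH1 belongs to this list and to the luminal markers, whose summed level also fell, and their part in the result was not tested.

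**Figure D4:**
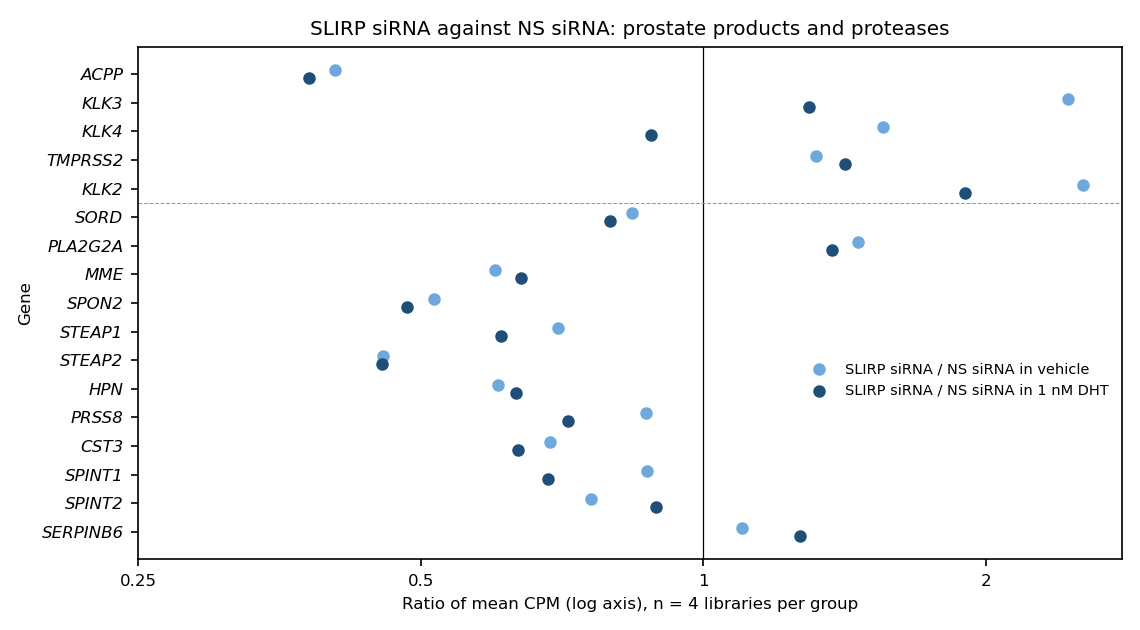
Ratio of the mean CPM with SLIRP siRNA to that with NS siRNA (log axis, n = 4 libraries per group, no error shown) in vehicle and in 1 nM DHT. Above the dashed line are the 5 tested genes of the set, below it the genes named from the lists of prostate products, membrane proteases and inhibitors. ACPP lies at 0.405 and 0.380, near STEAP2 and SPON2, while KLK2, KLK3 and TMPRSS2 lie above 1 in both.

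For each gene with a mean of at least 30 counts, the 3 genes with the most similar pattern were found by the root mean square difference of centred log2 CPM over the 16 libraries, among 6961 genes of at least that mean count. KLK3 was most like KLK4 (0.49), then ZNF367 (0.70) and ELOVL7 (0.77), where KLK3 itself varied by 1.31 around its own mean. KLK4 was most like KCNMA1 (0.49), KLK3 (0.49) and AADAT (0.53). TMPRSS2 was most like CLGN (0.23), PTRH2 (0.24) and KCNMA1 (0.25). ACPP was most like TTC3 (0.11), ATP11A (0.13) and MARCKS (0.15), and no kallikrein was among these. The points share 16 libraries and their scaling, and these values are a description with no test.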

How the data were processed

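The deposited values were gene-level estimated counts from RSEM, which the authors rounded to whole numbers, for 20531 entries against hg19, from single reads of 50 bases. The labels name CASAVA and RSEM, and versions are not given in the sources used here. A second deposited table held the authors' upper-quartile normalized score (count times 1000 over the library's upper quartile) for part of the genes and served only in alternatives. Entries without a symbol held 0.0353% of counts and were kept.

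Counts were tested in R 4.3.3 with edgeR 4.0.16 (TMM, filterByExpr, quasi-likelihood test, Benjamini-Hochberg, adjusted p of at most 0.01). DHT in NS siRNA was fitted on the 8 NS libraries, as the study compared them, the other pairs of groups and the interaction in a 4-group model of 16 libraries, and the siRNAs over both treatments as 8 against 8. The prior count for log2 CPM was 2. An SE is the log2 fold change over the square root of F, and an interval is the 95% interval from it. The scripts were tested on simulated data. Alternatives used DESeq2 1.42.0, limma 3.58.1, other scalings and filters, a replicate block and left-out libraries. Exact permutation tests used scipy 1.17.1. Library totals of 436353 to 1689708 counts set the precision, and p-values measure the spread between these libraries only.

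The 6 genes and the lists were chosen with earlier results of these data known. From each list, at most the 3 genes with the largest change that passed in a comparison and had a mean of at least 30 counts were named, plus KLKP1. Promoter windows came from RefSeq (GRCh38.p14) and were placed in hg19 by exact match. No pooled or unmatched sample columns were used. Some marker genes are not reported here.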

Additional observations from a re-analysis of the deposited data

Results flagged for a closer look

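MSMB in SLIRP-1nM DHT stood apart by the distance between libraries. Replicate 1 was at 2.61 CPM from 2 counts and the other 3 libraries were at 0, so the gap of the most distant library took the whole range of the group (a gap ratio of 1). It was the only case in the 24 combinations of gene and group examined, where chance is set to mark about 1 in 20, and 2 counts are within the 3 counts that a value of 0 allows.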

How the results depend on the processing

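The count of genes of the set that passed moved by over 1.5 times in few settings. Testing only genes with 10 or more counts in every library fitted left KLK3 and TMPRSS2 as the passing genes for DHT in either siRNA. These were 2 in place of 4, because KLK2 and KLK4 were no longer tested. The libraries fitted were the 8 NS libraries for DHT in NS siRNA and all 16 libraries for DHT in SLIRP siRNA. limma on the authors' normalized table passed 0 genes for DHT in NS siRNA, 2 for DHT in SLIRP siRNA and 1 for SLIRP siRNA in DHT, at pseudocounts of both 1 and 0.1, where the log2 fold changes of KLK3 for DHT in NS siRNA were 2.93 and 2.94 (adjusted p = 0.0235 and 0.0307). Those of KLK2, KLK4 and TMPRSS2 there had adjusted p of 0.0179, 0.0711 and 0.315 at a pseudocount of 1. Over all 13147 genes limma called 0 higher and 0 lower for DHT in NS siRNA at a pseudocount of 1 (3 and 1 at 0.1), 6 and 6 in SLIRP siRNA (8 and 9), and 553 and 816 for SLIRP siRNA in DHT (574 and 821). The cause was not tested. The same tool passed KLK2 for SLIRP siRNA in vehicle (1.42 and 1.45, adjusted p = 0.00357 and 0.00375). Over both treatments 4 genes passed with treatment as a covariate and 4 with the replicate block. Of all 10167 genes tested, 1992 were higher and 1983 lower with the covariate, and 2007 and 1948 with the block. The adjusted p of KLK2 from DESeq2 was not given for DHT in either siRNA, and that gene was left out there.

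Leaving out replicates gave 3 to 4 passing genes for DHT in NS siRNA, 4 to 4 for DHT in SLIRP siRNA, 2 to 2 for SLIRP siRNA in vehicle, 3 to 4 for SLIRP siRNA in DHT, 0 to 0 for the interaction and 1 to 1 over both treatments. KLK3 for SLIRP siRNA in DHT had an adjusted p of 0.0547 without replicate 3. Directions turned only where no call was made. The KLK2 interaction ranged from -0.86 to 0.23 over the fits without a replicate, and was 0.055 without NS-Veh replicate 3. KLK4 over both treatments was 0.0025 with DESeq2, 0.00025 with the block, 0.22 and 0.22 with limma, 0.0049 with the covariate, and ranged from -0.27 to 0.075 over the fits without a replicate, above 0 without NS-1nM DHT replicate 1, 2 or 4 (0.022, 0.075 and 0.00060). The KLK2 to KLK3 ratio for DHT in NS siRNA was 0.46 at a prior count of 0.5. Per kilobase of the longest and of the canonical transcript, the NS-Veh level was 0.848 and 0.853 for KLK2, 14.6 and 27.0 for KLK3, 20.6 and 20.6 for KLK4, 24.03 and 28.5 for TMPRSS2 and 105.8 and 105.8 for ACPP.

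Replicate numbers were not taken as pairs, since not every correlation of same-numbered samples was over 0.1. Correlations of same-numbered deviations from the group means were 0.158, 0.0504, 0.138 and 0.201 between the NS groups, and over all pairs of groups 10 of 24 libraries were most like their own number in the other group. In 21 of 24 the most similar library had a number of the same pair, 1 and 2 or 3 and 4, a hint from the data and not from the design. With the replicate block, 169 genes were higher and 101 lower with DHT in NS siRNA, against 88 and 48 without it, and 98 and 86 in SLIRP siRNA, against 68 and 57. Depth limits KLK2 in vehicle, at 1 to 8 counts a library, and MSMB throughout.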
